A study of Homo sapiens with 10 samples.

Results

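The surface target genes were 8 genes whose products sit on the outer membrane of prostate cancer cells and have been tried, or proposed, as targets of antibodies, radioligands or engineered T cells: FOLH1, STEAP1, STEAP2, STEAP4, PSCA, CEACAM5, DLL3 and CD276. They were chosen by name, out of 20033 protein-coding genes, and every acetylated peak over each gene body and 50 kb to each side was taken. In C4-2B cells these windows held 61 H3K27ac peaks of the 68034 in the list and 114 H3K18ac peaks of 198451. In C4-2BER cells they held 84 H3K27ac peaks of 72971 and 117 H3K18ac peaks of 197948.

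C4-2B is a castration-resistant human prostate adenocarcinoma line. C4-2BER is an enzalutamide-resistant line derived from it, labelled neuroendocrine-like and, per the study's methods, kept in the antiandrogen enzalutamide, so that resistance, drug exposure and cell state cannot be told apart. Both lines grew in the same serum-containing medium, were fixed with disuccinimidyl glutarate and formaldehyde, and were sequenced after chromatin immunoprecipitation with 1 antibody per mark, with 2 libraries per line and mark and 1 input library per line. The authors merged the 2 libraries before calling peaks, so each line had 1 list per mark, and every value below has no replicate error and no test. C4-2BER is a single derived line, and the list gives fold enrichment over the local background and not read counts, so the depth behind each value is unknown.

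H3K27ac and H3K18ac are acetyl marks of histone H3 that the coactivators p300 and CBP place at active promoters and enhancers. FOLH1 encodes prostate-specific membrane antigen, a glutamate carboxypeptidase that is the target of clinical radioligands. STEAP1, STEAP2 and STEAP4 belong to a family of membrane proteins, most of which reduce iron and copper. PSCA is a lipid-anchored member of the Ly6 family, CEACAM5 is the carcinoembryonic antigen, DLL3 is an inhibitory ligand of the Notch pathway found on neuroendocrine tumours, and CD276 (B7-H3) is an immune checkpoint protein of the B7 family.

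The sequences shown first are the stretches on which the comparisons below turn, printed 5′ to 3′. Of the 8 genes, 5 had an entry in the RefSeq promoter table (GRCh38.p14), and 4 of their promoters are shown, each from 250 bases before to 30 bases after the start: CD276, whose promoter fell in H3K27ac, STEAP1 and STEAP2, whose promoters stayed within 2-fold, and CEACAM5, which had no H3K27ac promoter peak in either line. FOLH1, PSCA and DLL3 are named only. Capitals mark any of 4 motifs found on either strand: the steroid receptor half-site AGAACA, the forkhead motif TGTTTAC, the GC box GGGCGG and the E-box CAGCTG, none of which overlapped another kind in these stretches. Adjoining GC boxes in CD276 do overlap each other.
CD276, chr15:73684133-73684412, plus strand: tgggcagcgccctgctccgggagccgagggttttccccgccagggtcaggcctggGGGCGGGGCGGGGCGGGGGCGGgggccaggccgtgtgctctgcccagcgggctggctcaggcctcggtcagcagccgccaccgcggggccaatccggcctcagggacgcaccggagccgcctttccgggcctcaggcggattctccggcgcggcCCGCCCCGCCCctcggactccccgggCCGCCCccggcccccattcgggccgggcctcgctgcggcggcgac
STEAP1, chr7:90154219-90154498, plus strand: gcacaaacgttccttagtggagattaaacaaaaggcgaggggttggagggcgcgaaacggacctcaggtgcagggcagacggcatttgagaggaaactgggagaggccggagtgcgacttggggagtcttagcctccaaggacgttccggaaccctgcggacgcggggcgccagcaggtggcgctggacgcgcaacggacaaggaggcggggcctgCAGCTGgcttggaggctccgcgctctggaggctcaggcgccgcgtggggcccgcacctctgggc
STEAP2, chr7:90211490-90211769, plus strand: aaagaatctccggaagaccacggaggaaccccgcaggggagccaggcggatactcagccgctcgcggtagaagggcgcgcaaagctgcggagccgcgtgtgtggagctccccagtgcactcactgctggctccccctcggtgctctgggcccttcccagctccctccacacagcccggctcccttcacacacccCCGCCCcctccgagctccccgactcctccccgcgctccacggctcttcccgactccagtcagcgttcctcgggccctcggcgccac
CEACAM5, chr19:41708376-41708655, plus strand: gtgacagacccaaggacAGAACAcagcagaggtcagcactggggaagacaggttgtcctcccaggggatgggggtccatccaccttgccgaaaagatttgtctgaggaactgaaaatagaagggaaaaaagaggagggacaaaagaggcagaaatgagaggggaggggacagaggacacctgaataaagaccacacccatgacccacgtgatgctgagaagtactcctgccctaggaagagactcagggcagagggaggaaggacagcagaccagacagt

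The CD276 promoter held 7 GC boxes in 280 bases, with 80.7% G or C, a share above that of 97.8% of the 35116 promoters in the table. The STEAP2 promoter held 1 GC box and 70.0% G or C, and the STEAP1 promoter held 1 E-box and 66.4% G or C. The CEACAM5 promoter, with 53.6% G or C and 2 CpG dinucleotides, held a single steroid receptor half-site. Over all promoters, 44.1% held a GC box, 16.4% the E-box, 13.8% the half-site and 3.25% the forkhead motif, so a match in 1 stretch is a description only.

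The next stretches are the centres of C4-2BER H3K27ac peaks that were stronger than in C4-2B or absent there: one upstream of the main STEAP2 start and one in intron 12 of FOLH1. The lists give no summit, so the middle 300 bases of each peak are shown, read on the plus strand of GRCh38.
STEAP2 upstream, chr7:90182175-90182474: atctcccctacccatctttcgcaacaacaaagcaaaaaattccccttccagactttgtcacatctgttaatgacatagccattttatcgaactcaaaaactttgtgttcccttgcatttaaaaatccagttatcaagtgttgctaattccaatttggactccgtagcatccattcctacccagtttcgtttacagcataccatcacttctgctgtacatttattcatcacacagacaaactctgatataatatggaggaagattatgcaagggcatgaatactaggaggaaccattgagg
FOLH1 intron 12, chr11:49165368-49165667: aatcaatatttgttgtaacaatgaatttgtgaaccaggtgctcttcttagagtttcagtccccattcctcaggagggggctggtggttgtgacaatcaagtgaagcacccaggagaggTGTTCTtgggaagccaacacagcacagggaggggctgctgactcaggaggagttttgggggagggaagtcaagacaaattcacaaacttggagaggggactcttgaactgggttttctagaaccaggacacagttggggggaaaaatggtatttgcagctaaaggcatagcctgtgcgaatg

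Only the FOLH1 stretch held one of the motifs, a steroid receptor half-site on the minus strand, against 16.8% of the centres of all 82497 H3K27ac regions of at least 300 bases. Of the 50-base words in the whole peak regions, 6.12% occurred elsewhere in the genome for FOLH1 intron 12 and 3.9% for the upstream STEAP2 region. The share was 30.6% over a FOLH1 region in intron 3 (chr11:49193206-49200173) and 12.4% over the strongest STEAP2 gain (chr7:90275341-90276361), where such words lay mostly toward the centre. Reads from words that occur elsewhere can be lost when poorly placed reads are removed, as the authors did.

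Promoters were compared first, as the highest fold enrichment of any peak within 2000 bp before to 500 bp after an annotated start. In H3K27ac, 7 of the 8 genes had a promoter peak in both lines, and CD276 alone passed a 2-fold difference, falling from 31.0 in C4-2B to 14.2 in C4-2BER. No promoter was increased 2-fold (4.56% of the 15346 protein-coding genes with a promoter peak were), and 1 was decreased (10.8% of all). In H3K18ac, none was increased (2.15% of 17828 genes) and 1 was decreased (5.90% of all), namely CEACAM5, whose weak peak of 2.81 in C4-2B had no counterpart in C4-2BER. With so few genes, these shares do not set the 8 apart from other promoters.

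In C4-2B the strongest promoters of the 8 were those of CD276 and PSCA in both marks. In C4-2BER PSCA was strongest in H3K27ac, with STEAP1 above CD276, and STEAP2 was strongest in H3K18ac. CD276 had 31.0 in H3K27ac in C4-2B and 14.2 in C4-2BER, and 11.2 and 5.82 in H3K18ac. These are ratios of 2.19 and 1.92, so that H3K18ac stayed just inside the 2-fold limit. Among genes with an H3K27ac promoter peak in the line, CD276 ranked above 92.3% in C4-2B and above 63.8% in C4-2BER. The drop in fold passed the limit only as deposited: after the C4-2BER values were rescaled to the trend over shared regions, its log2 ratio went from -1.13 to -0.70, and the call was lost. PSCA had 23.6 and 19.96 in H3K27ac and 10.4 and 9.16 in H3K18ac, and in rank its H3K27ac promoter went the other way, above 73.0% of genes in C4-2B and above 92.7% in C4-2BER. The same peak also covered a promoter of JRK, so its value belongs to both genes.

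**Figure D1:**
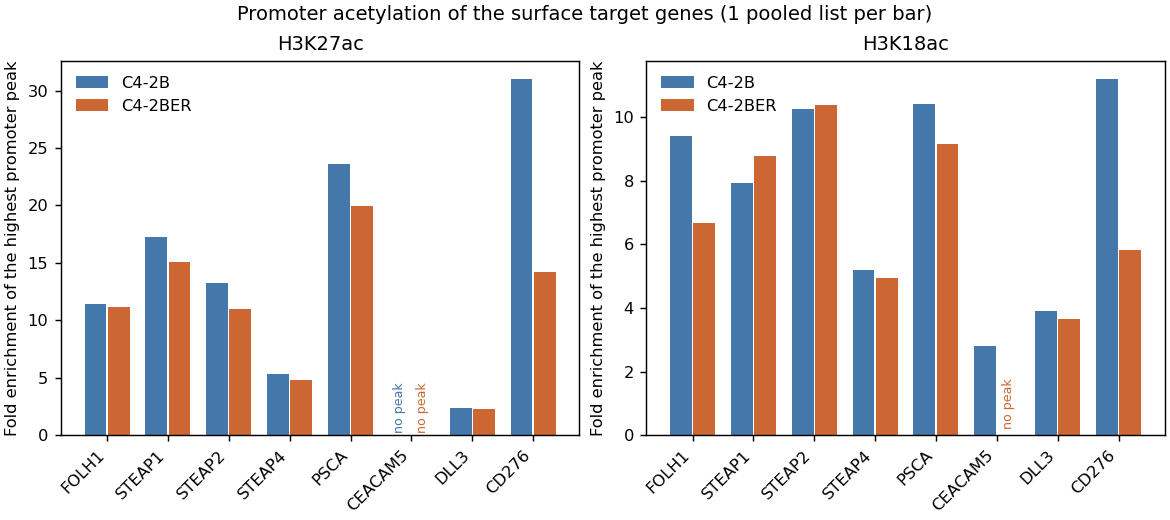
Highest fold enrichment (vertical axis, ratio to local background) of a promoter peak of each of the 8 genes in C4-2B (blue) and C4-2BER (orange), 1 pooled list per bar, H3K27ac on the left and H3K18ac on the right. CD276 shows the widest gap between the lines in both marks, and CEACAM5 has no H3K27ac bar.

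The 3 STEAP genes among the 8 were graded in H3K27ac. STEAP1 had 17.3 in C4-2B and 15.1 in C4-2BER in H3K27ac, and 7.93 and 8.78 in H3K18ac. STEAP2 had 13.2 and 10.99 in H3K27ac, and 10.3 and 10.4 in H3K18ac. STEAP4 stood lower in every list, at 5.32 and 4.81 in H3K27ac and 5.20 and 4.95 in H3K18ac. The order STEAP1, STEAP2, STEAP4 held in H3K27ac in both lines, while in H3K18ac STEAP2 stood above STEAP1. It did not extend to the family: STEAP3, not among the 8, had 14.8 in C4-2B and 10.7 in C4-2BER in H3K27ac. That is above STEAP2 in C4-2B and below it in C4-2BER. STEAP1 ranked above 46.0% of H3K27ac promoters in C4-2B and 70.4% in C4-2BER.

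FOLH1 stood at 11.5 in C4-2B and 11.2 in C4-2BER in H3K27ac, the latter at another annotated start within the gene (10.97 at the main start), and went from 9.41 to 6.67 in H3K18ac. DLL3 had weak promoter peaks, 2.40 and 2.27 in H3K27ac and 3.89 and 3.66 in H3K18ac, and ranked above only 1.55% of H3K27ac promoters in C4-2B. CEACAM5 had none in H3K27ac. Its H3K18ac peak in C4-2B lay at -1766 to -1163 bp from the main start and also overlapped a promoter of CEACAM7, so it does not belong to CEACAM5 alone.

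H3K27ac was lower in C4-2BER at 7 of 7 promoters with peaks in both lines, and was higher at 12.2% of all 14304 such genes, with a median log2 ratio of -0.20 for the 7 and -0.50 for all. After rescaling, the signs divided, with 4 of the 7 higher and 3 lower in C4-2BER, and medians of 0.09 for the 7 and -0.12 for all. In H3K18ac 2 of 7 were higher as deposited and 5 of 7 after rescaling. A direction for promoters as a group therefore depended on the scale, and CD276 was lower on either one in both marks.

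The 2 lines both had promoter peaks at markers of prostate luminal cells. The markers KLK2, KLK3, TMPRSS2, HOXB13 and FOXA1 all had promoter peaks in both marks and both lines and none of the 5 was called, against 4.56% of all H3K27ac promoters increased and 10.8% decreased. All 5 were lower in C4-2BER in H3K27ac as deposited, where only 12.2% of all shared promoters were higher. KLK2 and KLK3 had the same H3K27ac promoter value in each line, so they do not count as 2 separate values. At its main start KLK2 had another value in each line and was also lower in C4-2BER. After rescaling TMPRSS2 and HOXB13 were higher, with log2 ratios of 0.42 and 0.27. FOXA1, a forkhead pioneer factor, stood at 29.0 in C4-2B and 15.0 in C4-2BER, just inside the 2-fold limit, and at 14.0 and 8.23 in H3K18ac. HOXB13, a prostate homeobox factor, stood at 23.5 and 19.8 in H3K27ac. Among neuroendocrine markers, ENO2, a neuronal enolase, went from 4.00 to 14.3 in H3K27ac only through a peak at another annotated start, and at its main start stood at 4.00 and 7.30, inside the 2-fold limit. SYP stood at 8.16 and 5.67, and CHGA, INSM1 and NCAM1 had no H3K27ac promoter peak in either line. These 5 had H3K18ac promoter peaks in both lines, none of them called, but at its main start CHGA had one in C4-2B only, at 2.50. Of 3 stroma markers, VIM fell from 19.2 to 8.15, COL1A1 stood at 10.7 and 6.86, and DCN had no H3K27ac promoter peak. In H3K18ac DCN had a peak in C4-2BER only, at 2.68, and was called increased. These markers do not settle the neuroendocrine label of C4-2BER, and at ENO2 the call depended on the start used.

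Over the whole windows, promoters included, peaks of the 2 lines that overlapped were merged into regions, and a region was increased where only C4-2BER had a peak or where its length-weighted mean fold was at least 2 times that in C4-2B, and decreased in the mirrored case. The 8 windows held 84 distinct H3K27ac regions, of which 29 (34.5%) were increased and 9 (10.7%) decreased, against 30.5% and 22.7% of all 89877 regions. In H3K18ac, 24 of 128 (18.8%) were increased and 15 (11.7%) decreased, against 26.2% and 23.5% of all 247646. The balance of calls depended on the settings: in H3K27ac 9 were increased and 6 decreased with a minimum fold of 4, and 38 and 22 with 100 kb to each side, and in H3K18ac 22 and 1 with a −log10 q of at least 5. As first counted, the share increased stood near the background in H3K27ac and below it in H3K18ac, and the share decreased was below it in both. Of the 84, 8 were increased in both marks (8.15% of all H3K27ac regions were) and 2 decreased in both (5.01% of all). Of the 29 increased, 26 were peaks in C4-2BER only, and these were weak, with folds of 1.92 to 5.96 and a median of 2.89.

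The increased regions were not spread evenly: 13 of the 29 lay in the window of STEAP2. There 13 of 24 H3K27ac regions (54.2%) were increased, against 30.5% of all, and none decreased, against 22.7%. Of 20033 protein-coding genes, 157 (0.784%) had as many increased regions in their window. This rank is by count and was not adjusted for size: the STEAP2 window was 170548 bp long with 24 regions, against medians of 127466 bp and 8 regions over all genes. The 13 became 6 with a minimum fold of 4 and 7 with 20 kb to each side, and the rank among genes was not computed for these. H3K27ac peaks covered 20.4% of the window in C4-2B and 34.5% in C4-2BER, and this difference of 14.1 percentage points was larger than that of 98.0% of genes. In H3K18ac 7 of 30 regions (23.3%) were increased, under the 26.2% of all regions, none was decreased, and 3471 genes (17.3%) had as many increased. H3K18ac coverage was 14.5% in C4-2B and 27.5% in C4-2BER, a difference larger than in 97.0% of genes. The window of STEAP1, whose main start lies 57.3 kb before that of STEAP2, shared all 13 of its H3K27ac regions with STEAP2, 6 of them increased, and so adds no separate evidence.

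The H3K27ac gains were unevenly placed within the locus. Over the main STEAP2 start and within the gene past it, 0 of 5 H3K27ac regions were increased, with C4-2BER folds of 5.50 to 11.6. The last of them began in STEAP2 and ran past its end over the start of CFAP69. Beside the 30.5% of all H3K27ac regions that were increased, past the gene end 7 of 7 were, all inside CFAP69, the next gene, which encodes a protein of cilia and flagella. Before the main start 6 of 12 were increased, some inside a longer STEAP2 transcript and the antisense gene STEAP2-AS1. Weak ones at chr7:90165694-90166117 (2.15) and chr7:90167847-90168347 (2.22), in C4-2BER only, overlapped promoter windows of annotated STEAP2 starts further upstream. The highest promoter fold of STEAP2 does not show these gains. In H3K18ac the split was weaker, with 0 of 7 increased over the start and within the gene, 4 of 9 past the gene end and 3 of 14 before the start, against 26.2% of all. ChIP-seq carries no strand, so these regions cannot be assigned to 1 of the genes.

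The strongest gain was at chr7:90275341-90276361, 63.6 kb past the main start of STEAP2, in CFAP69. It rose from 2.18 in C4-2B to 11.8 in C4-2BER in H3K27ac, a ratio of 5.41, and from 3.37 to 7.31 in H3K18ac, a ratio of 2.17. On the other side, chr7:90180614-90183176 rose from 4.59 to 10.3 in H3K27ac, a ratio of 2.24, while its H3K18ac peak went from 4.35 to 7.97 and stayed under the 2-fold limit. Both regions were thus higher in both marks. As deposited, the downstream one alone was called in both, whereas after rescaling the upstream H3K18ac peak also passed the limit, at a log2 ratio of 1.14.

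A broad H3K27ac domain of 7539 bp at chr7:90191807-90199345 was present in C4-2BER only, at a fold of 4.62. H3K18ac had a peak there in both lines, at 2.41 and 3.74. The other regions called in both marks in the STEAP2 window were weak peaks present in C4-2BER only, with H3K27ac folds of 2.60 (chr7:90188239-90188491), 2.99 (chr7:90249954-90253585) and 2.94 (chr7:90286794-90287105).

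**Figure D2:**
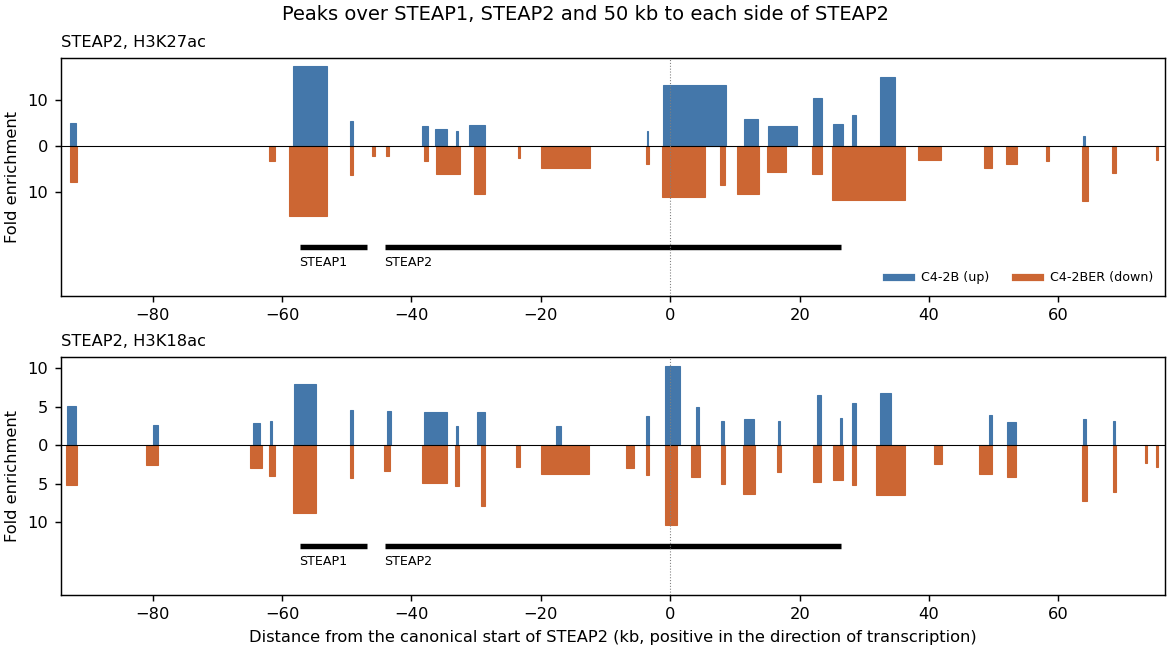
Peaks in the STEAP2 window by distance from its canonical start (horizontal axis, kb), with fold enrichment upward for C4-2B (blue) and downward for C4-2BER (orange), H3K27ac above and H3K18ac below. Black bars are the STEAP1 and STEAP2 gene bodies, and toward the right edge, inside CFAP69, most orange H3K27ac peaks have no blue partner, the tallest reaching 11.8.

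The increased H3K27ac regions of the STEAP2 window had a median of 43.1% G or C, and the 11 called neither way a median of 41.7%, so a low share was common to the window and did not set the gains apart. Over the genome the medians were 49.6% for increased regions and 51.7% for those called neither way. Of the 50-base words in the STEAP2 window, 14.8% occurred elsewhere, against 27.4% in the STEAP1 window. Within 1000 bp of the STEAP1 start 36.1% of words occurred elsewhere, and 0% around that of STEAP2, so the promoter values of STEAP1 are uncertain. Where the copies lie was not measured.

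FOLH1 carried acetylation along its whole body. Its window held 12 H3K27ac regions, 11 of them over the start or in the gene, and no other protein-coding gene. Of the 9 of these 11 with peaks in both lines, 7 were higher in C4-2BER as deposited, against 36.2% of all shared H3K27ac regions. After rescaling, all 9 were higher. The other 2 were present in C4-2BER only, and none was decreased. Over the window, 25% of H3K27ac regions were increased, under the 30.5% of all regions, and 0% decreased, against 22.7%. The strongest region in C4-2B was in intron 4 (chr11:49190580-49192288), at 18.1, and stood at 14.6 in C4-2BER. The strongest in C4-2BER was in intron 3 (chr11:49193206-49200173), at 14.9 against 12.6 in C4-2B. There a single broad peak in C4-2B faced 3 narrower ones in C4-2BER, the tallest at 18.4, and a mean over a broad peak dilutes its summit.

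H3K18ac followed the same intron. Its strongest FOLH1 region in C4-2BER was chr11:49193673-49194262 in intron 3, at 9.03 against 4.80 in C4-2B, whereas in C4-2B the start itself was strongest, at 9.41 against 6.67. Of the 14 H3K18ac regions in the gene with peaks in both lines, 10 were higher in C4-2BER, against 32.6% of all shared H3K18ac regions. Regions increased in both marks lay in intron 12 (chr11:49165257-49165779, 5.96 in H3K27ac and 3.95 in H3K18ac, both in C4-2BER only) and in intron 18 (chr11:49147657-49147995, 2.91 and 2.81). Coverage of the window by H3K27ac was 19.8% in C4-2B and 20.3% in C4-2BER, a difference larger than in 41.1% of genes. Coverage by H3K18ac was 9.04% and 13.9%, a difference larger than in 82.3% of genes. Of the 24 H3K18ac regions of the window, 6 (25%) were increased, under the 26.2% of all, and 0% decreased, against 23.5%.

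**Figure D3:**
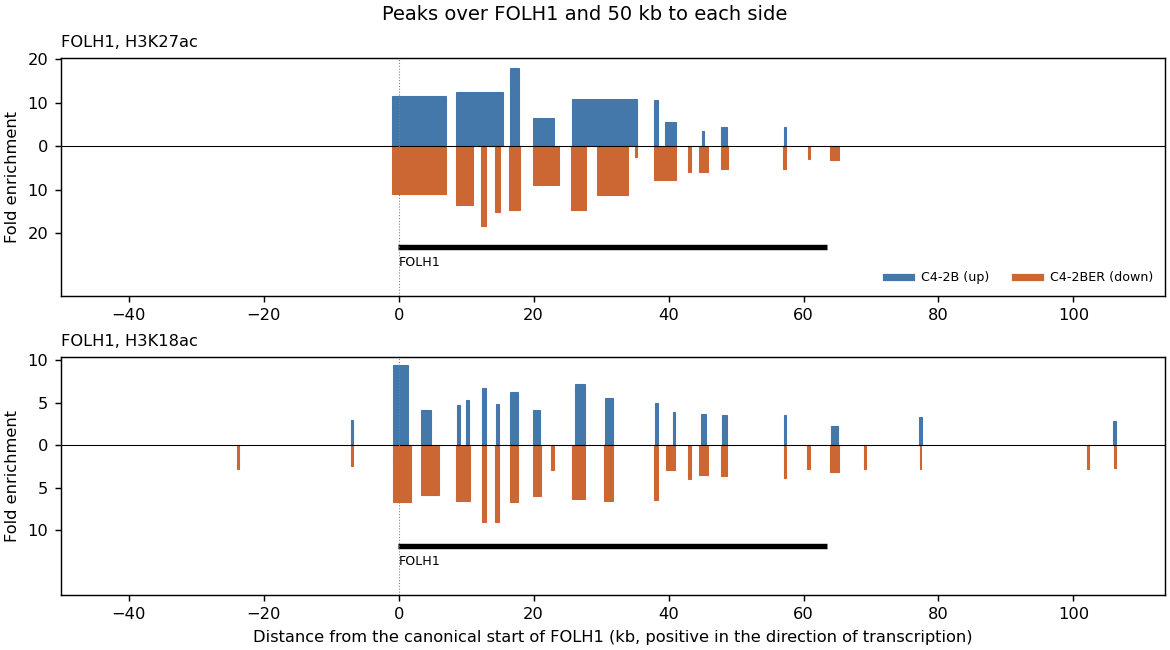
Peaks in the FOLH1 window by distance from its canonical start (horizontal axis, kb, in the direction of transcription), with fold enrichment upward for C4-2B (blue) and downward for C4-2BER (orange), H3K27ac above and H3K18ac below. The black bar is the gene body, which holds 11 of the 12 H3K27ac regions, and the broad blue peak in intron 3 faces 3 orange ones.

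Of the 50-base words in the FOLH1 body, 30.5% occurred elsewhere in the genome, against 2.62% for PSCA, 2.70% for STEAP4 and 4.32% for DLL3. FOLH1 has a near-identical pseudogene, FOLH1B, but where the copies lie was not measured. STEAP1 had a share close to that of FOLH1, 28.4%, and within 1000 bp of the start the higher one, 36.1% against 19.7% for FOLH1. The fold enrichments of FOLH1 and STEAP1 are for this reason less certain than those of PSCA, STEAP4 and DLL3.

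CD276 was lower over its start in C4-2BER and had weak H3K27ac peaks around it that C4-2B lacked. The peak over the start (chr15:73682817-73687148, exon 1 and intron 1) was the strongest of the window in both lines and marks. All 4 H3K27ac regions over the start and in the gene were lower in C4-2BER, as were most shared regions of the genome, including one in intron 1 at 6.07 in C4-2B and 3.30 in C4-2BER. The window also held the promoter of NPTN, a neighbouring cell adhesion gene, which fell from 25.2 to 12.5 in H3K27ac and stood at 10.1 and 5.72 in H3K18ac, so the lower values were not particular to CD276. A small region near NPTN (chr15:73636228-73636460) was decreased in both marks, with C4-2B folds of 2.53 and 2.46 and no C4-2BER peak. The 6 increased H3K27ac regions were present in C4-2BER only, at folds of 1.92 to 3.00, and each overlapped an H3K18ac region with peaks in both lines that was called neither way. They were 42.9% of the 14 H3K27ac regions of the window, against 30.5% of all, and the 3 decreased were 21.4%, against 22.7%. In H3K18ac 1 of 23 regions (4.35%) was increased and 3 (13.0%) were decreased, against 26.2% and 23.5% of all.

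DLL3 was weak at its start and stronger in its body. The region over exons 6 to 9 (chr19:39505398-39508366) stood at 16.4 in C4-2B and 10.0 in C4-2BER in H3K27ac, and its H3K18ac region at 9.02 and 5.69. The region over exons 4 and 5 (chr19:39502403-39504270) stood at 10.2 and 6.40 in H3K27ac. All 3 H3K27ac regions over the start and in the gene were lower in C4-2BER, also after rescaling, and none passed 2-fold. Most shared regions were lower as deposited, so these signs alone do not set DLL3 or CD276 apart. In the DLL3 window, 4 of 17 H3K27ac regions (23.5%) were increased and 2 (11.8%) decreased, against 30.5% and 22.7% of all. In H3K18ac 3 of 17 (17.6%) were increased and 4 (23.5%) decreased, against 26.2% and 23.5% of all. H3K27ac peaks covered 19.9% of the window in C4-2B and 21.1% in C4-2BER, and H3K18ac peaks 17.9% and 20.1%. The neighbourhood is dense, with 5 other protein-coding genes, and its strongest peak was over the start of EID2, at 30.5 and 21.6. A region within SUPT5H (chr19:39460615-39465384), a transcription elongation factor gene, fell from 11.04 to 4.05. The region increased in both marks, chr19:39557623-39558972, 58.7 kb past the DLL3 start, was present in C4-2BER only, at 3.56 in H3K27ac and 2.81 in H3K18ac.

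**Figure D4:**
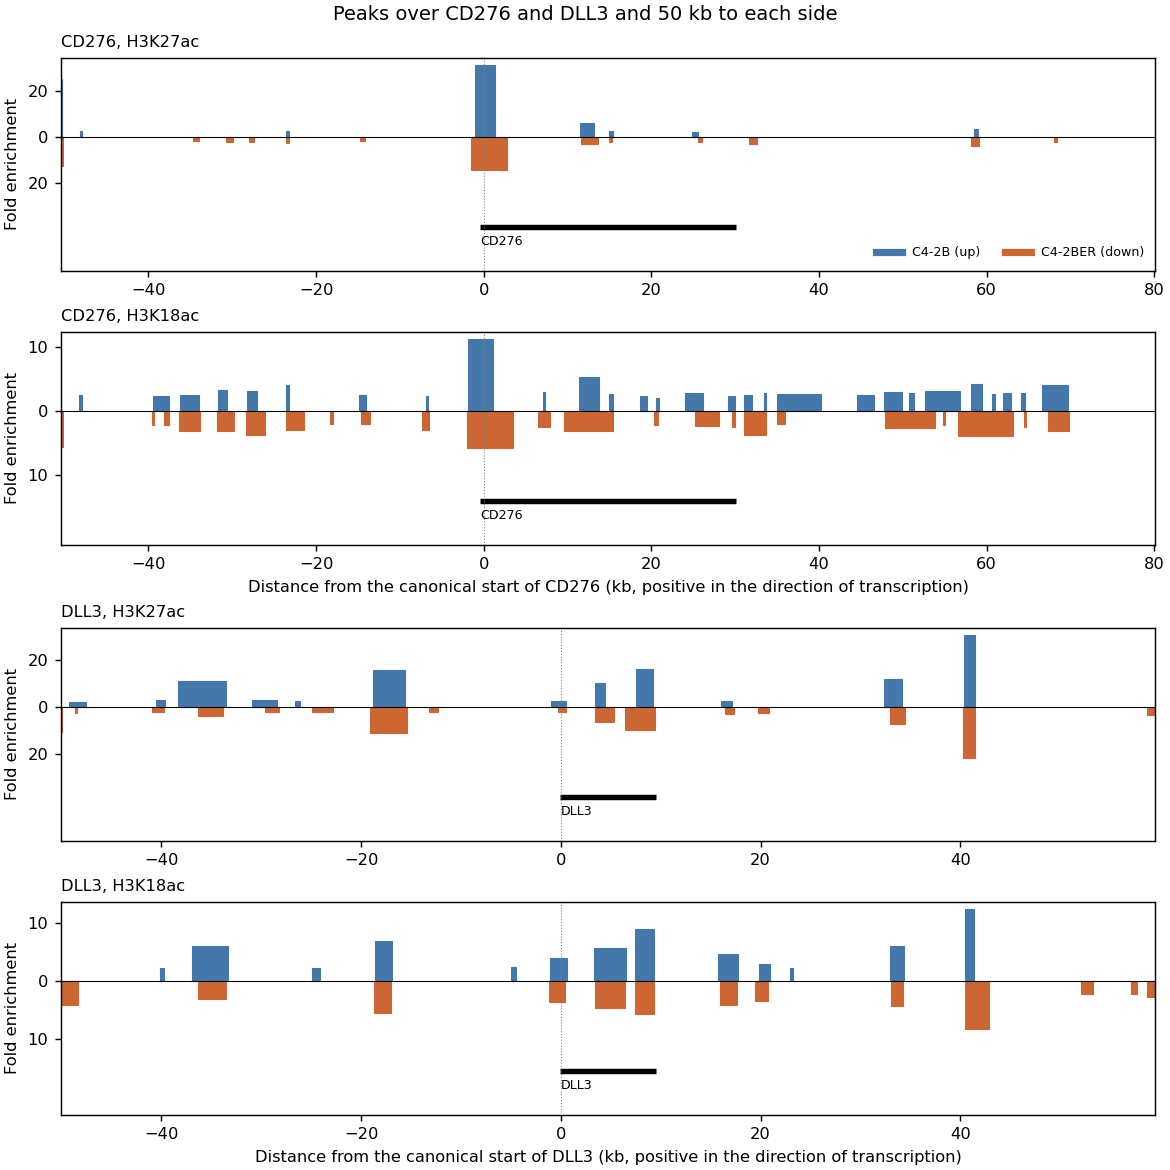
Peaks in the CD276 window (upper pair) and the DLL3 window (lower pair) by distance from the canonical start (horizontal axis, kb), with fold enrichment upward for C4-2B (blue) and downward for C4-2BER (orange). The CD276 start shows 31.0 against 14.2 in H3K27ac, and for DLL3 the peaks in the body are taller than those at the start in either line.

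STEAP4 was sparsely marked in H3K27ac, with 5 regions, of which 1 (20%) was increased and 1 (20%) decreased, against 30.5% and 22.7% of all. In H3K18ac 5 of its 14 regions (35.7%) were increased and 1 (7.14%) decreased, against 26.2% and 23.5% of all, and coverage was 3.83% in C4-2B and 11.4% in C4-2BER, a difference larger than in 90.3% of genes. Its strongest H3K27ac region in both lines was in intron 3 (chr7:88281956-88282597), at 12.7 in C4-2B and 6.99 in C4-2BER, taller than the STEAP4 promoter in each. In both marks this region also overlapped a promoter of another gene, one without a symbol, so it does not belong to STEAP4 alone. The H3K18ac region there stood at 6.62 and 4.08. A region in intron 1 (chr7:88303136-88303527) was decreased in both marks, with a fold of 3.56 in H3K27ac and 2.92 in H3K18ac in C4-2B and no peak in C4-2BER. The only increased H3K27ac region, over a promoter of SRI, a calcium-binding protein gene, rose from 2.74 to 5.77.

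PSCA lay in a domain of 12491 bp in H3K27ac that ran from before its start past its end and stood at 23.6 and 19.96. Its window was the one of the 8 that lost coverage: H3K27ac peaks covered 27.4% in C4-2B and 21.4% in C4-2BER, a lower difference than in 97.0% of genes, and H3K18ac peaks 39.8% and 24.4%. Of its 11 H3K27ac regions 3 (27.3%) were decreased, near the 22.7% of all, and 1 (9.09%) was increased, under the 30.5% of all. In H3K18ac 5 of 15 (33.3%) were decreased, against 23.5% of all, and none was increased, against 26.2%. No region was called in both marks. The strongest region of the window in H3K27ac was over the promoters of THEM6 and LNCOC1, at 30.0 and 22.0.

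CEACAM5 had almost no acetylation in either line. Its window of 122 kb held 1 H3K27ac region, chr19:41773804-41775308, 65.2 kb past the start, present in C4-2BER only at 2.88, with an H3K18ac peak of 3.08 there, also in C4-2BER only. The strongest H3K18ac region, inside CEACAM7, was alike in the 2 lines at 3.48 and 3.39. Coverage by H3K27ac peaks was 0% in C4-2B and 1.24% in C4-2BER, against medians of 6.16% and 7.89% over all genes.

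**Figure D5:**
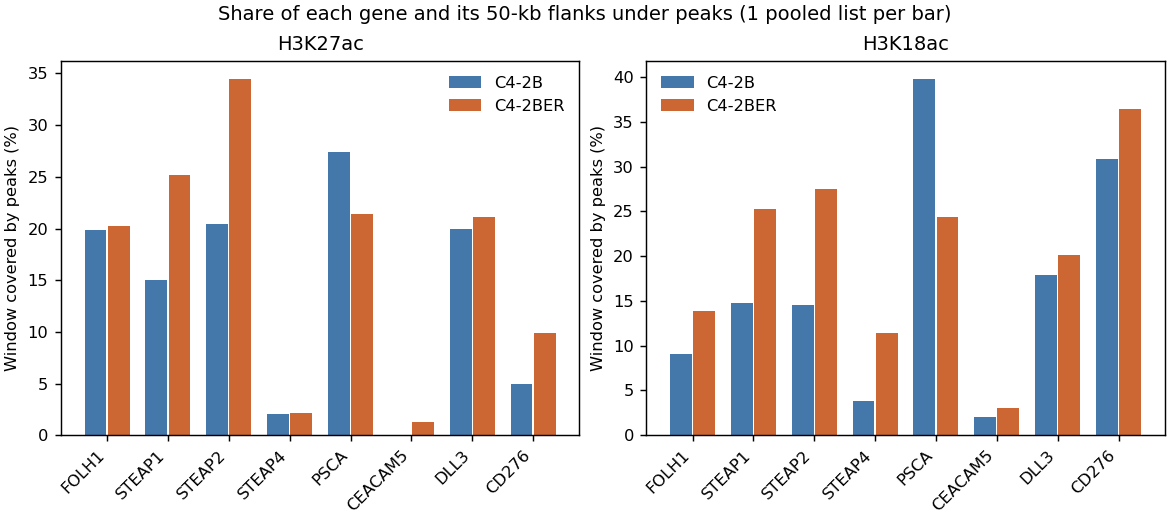
Share of each window under peaks (vertical axis, percent of bases) in C4-2B (blue) and C4-2BER (orange), 1 pooled list per bar, H3K27ac on the left and H3K18ac on the right. STEAP1 and STEAP2, whose windows overlap, are higher in C4-2BER in both marks, and PSCA is lower.

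The relatives of the 8 genes were 26, of which 25 are protein-coding. In H3K27ac 15 had a promoter peak in at least 1 line, with 3 increased and 3 decreased, against 4.56% and 10.8% of all genes with such a peak. CEACAM1, an adhesion molecule related to CEACAM5, rose from 3.46 to 8.56, while CEACAM3, CEACAM4 and CEACAM6 had no promoter peak in either mark. CD80 and VTCN1, of the B7 family like CD276, had peaks of 2.42 and 2.46 in C4-2BER only. STEAP1B fell from 5.77 to 2.83, and LY6D and LYPD2, of the Ly6 family like PSCA, had peaks of 2.88 and 2.38 in C4-2B only. The strongest was DLL1, another Notch ligand, at 27.6 and 17.7 through a peak at another annotated start. At its main start DLL1 stood at 9.47 and 10.7, so the direction turned, and below LY6E, a Ly6 family member, at 19.5 and 12.7.
In H3K18ac 20 relatives had a promoter peak. Of these, 1 was increased (HHLA2, 2.31 in C4-2BER only and not at its main start), against 2.15% of all genes, and 2 decreased, against 5.90% of all (CEACAM7, through the peak shared with CEACAM5, and CEACAM8, 2.34 in C4-2B only). No relative was called in both marks.

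Of 12 other surface antigens tried as targets, 10 had an H3K27ac promoter peak, none was increased and 1 was decreased, near the 4.56% and 10.8% of all genes. TMEFF2, a transmembrane protein of prostate and brain, had weak peaks in C4-2B only, at 2.57 in H3K27ac and 2.73 in H3K18ac. The strongest was EPCAM, an epithelial adhesion molecule, at 29.3 and 20.1. NECTIN4, the target of an antibody-drug conjugate, stood at 21.6 and 10.9 in H3K27ac and 10.2 and 5.58 in H3K18ac, just inside the 2-fold limit in both. SSTR2, a somatostatin receptor, stood at 3.15 and 4.29, the only one of the 9 with H3K27ac peaks in both lines that was higher in C4-2BER as deposited (3 of 9 were after rescaling).

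For each of the 7 genes with at least 1 promoter peak in all 4 lists, the gene with the most similar promoter was sought among 14241 genes, by the Euclidean distance over the 4 log2 fold enrichments. These were S1PR2 for FOLH1 (distance 0.16), ATP5MG for STEAP1 (0.05), CPSF7 for STEAP2 (0.19), TMDD1 for STEAP4 (0.09), CSF3R for DLL3 (0.10), STK3 for CD276 (0.10) and JRK for PSCA, at a distance of 0 because both share the peaks. For STK3 the values were 31.2 and 13.4 in H3K27ac and 10.8 and 5.99 in H3K18ac. With 4 values per gene, such likeness is a description over 4 lists only.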

How the data were processed

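ChIP-seq of H3K27ac and H3K18ac was analysed in C4-2B and C4-2BER cells (8 libraries and 1 input per line). The authors aligned reads to GRCh38 with bowtie2 (version 2.2.3 in the submitters' processing notes, another in the methods; the notes also name bcl2fastq 2.17, Trimmomatic 0.33, Picard and deepTools), removed blacklisted, poorly mapped and duplicate reads, merged the 2 replicates and called broad peaks with macs2. The deposited lists give the fold enrichment of each peak (a ratio to local background), a score and the −log10 of its q-value. Peaks were taken in windows from GENCODE release 44, merged into regions and compared with Python 3.11.15, pandas 2.3.3 and numpy 2.4.6. All peak ends fell within the reference's chromosome lengths.

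Regions were described by the ratio of length-weighted mean fold enrichment (limit 2) or by presence in 1 line only, and promoters by the highest fold. No test could be made, since each group was 1 pooled list. For the rescaled alternative, the trend of log2 ratio against fold over shared regions was removed. The other alternatives were a minimum fold of 4 or −log10 q of 5, equal numbers of peaks, a ratio of 1.5, presence only, windows of 20 or 100 kb, a required overlap, the highest fold, and other promoter definitions. The scripts were tested on simulated data. The named genes were the 8 members, the strongest region per mark and line, regions called in both marks, and the called or strongest genes of the fixed lists. Other regions and genes named were chosen after their values were seen. Some marker genes of the fixed lists and some of the sequences read are not reported here. The members and lists were chosen with earlier results of these data known. Promoter sequences came from RefSeq (GRCh38.p14) and other sequence from GRCh38, where exact 50-base words on both strands were counted.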

Additional observations from a re-analysis of the deposited data

How the results depend on the processing

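The direction of the CD276 promoter ratio was the same under every alternative that gave a value, but its H3K27ac call was lost after rescaling (log2 ratio -0.70), leaving 0 decreased promoters, as did counting presence only (0). In H3K18ac the decreased promoter count went from 1 to 0 with a minimum fold of 4, with a −log10 q of 5 and with 1000 bp to both sides of any start, and to 2 with a ratio of 1.5.

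The 29 increased H3K27ac regions became 9 with a minimum fold of 4, 17 with a −log10 q of 5 and 15 with 20 kb. The 9 decreased became 5 with a −log10 q of 5, 15 with a ratio of 1.5, 5 by presence only, 4 with 20 kb and 22 with 100 kb. The 24 increased H3K18ac regions became 9 with a minimum fold of 4, 13 with 20 kb and 42 with 100 kb, and the 15 decreased became 5 with a minimum fold of 4, 1 with a −log10 q of 5 and 23 with 100 kb. In the STEAP2 window, counted alone after the data had been seen, the 13 increased H3K27ac regions became 6 with a minimum fold of 4 and 7 with 20 kb, and the 7 in H3K18ac became 12 with a ratio of 1.5, 4 with 20 kb and 12 with 100 kb. The remaining 71 counts stayed within 1.5 times the main count.

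Leaving out a replicate was not possible, and no paired analysis was possible because each list already pools its 2 libraries. Without read counts, the depth that limits the weak peaks is unknown, and a peak present in 1 line only can lie just under the calling threshold in the other.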
